A study of Mus musculus with 6 samples.

Results

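The kinetochore and spindle checkpoint genes described here are 39 protein-coding genes, chosen by symbol from a list of centromere proteins, outer kinetochore subunits and checkpoint components. All 39 were found once each among the 25353 genes of the deposited table, and all 39 passed the filter on low values (a value of at least 1 in 3 libraries), as did 18762 genes in all. The RNA came from mouse oocytes at the germinal vesicle (GV) stage, germ cells held in prophase of the first meiotic division with an intact nucleus. Of 6 libraries from C57BL/6J mice, 3 were wild type (WT) and 3 carried a knockout (KO) label, with 5 oocytes pooled per library and no treatment named. The collection protocol describes oocytes freed from secondary follicles by enzymes. The series title and design text give the KO genotype as Mfn2-/- and the sample fields and protocol give Mfn1-/-, for mitofusins, the GTPases that fuse mitochondrial outer membranes. The design text puts the mice of both groups at 8 weeks, whereas the age field reads P1. How the gene was deleted, and in which cells, is not given in the sources used here. Nothing in the labels ties a pool to its own mouse, so p-values measure the spread between these pools.

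The kinetochore is the protein plate on each centromere that holds spindle microtubules. Its foundation is nucleosomes that carry the histone variant CENP-A, on which an inner network of CENP proteins assembles. An outer layer with the NDC80 complex binds microtubules, and a fibrous corona with motor proteins captures them early. Kinetochores that lack microtubules recruit the checkpoint kinases and MAD and BUB proteins, which build an inhibitor of the anaphase-promoting complex and so delay chromosome segregation. GV oocytes store transcripts of this machinery for the meiotic divisions, when transcription is off, and errors at this step give eggs with a wrong chromosome number.

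Of the deleted-gene candidates, Mfn2 had 25.5, 38.1 and 32.3 normalized read counts in WT replicates 1, 2 and 3. Its KO values, in the same order, were 5.25, 5.28 and 4.50, resting on 5 reads in each library. Mfn1 had 363, 298.5 and 360 in WT and 398, 382 and 379 in KO. The libraries labelled KO were therefore low in Mfn2 and not in Mfn1. Libraries held from 6450191 to 7992598 reads in genes. Principal component 1 (28.9% of the variance) separated the groups, WT between -44.4 and -26.0 and KO between 31.0 and 45.8. On the second component, WT replicate 1 stood apart from the other WT libraries, at 49.3 against values below 0. The KO libraries also spread there, at -39.3, 9.6 and 32.8 for replicates 1, 2 and 3. The 12 oocyte markers summed to between 140528 and 164729 in WT and between 111688 and 149944 in KO, and none was called. Zp1 (5392 to 6984 in WT, 2652 to 5252 in KO) and Dppa3 (30094 to 31334, 24002 to 26331) did not overlap, both lower in KO. The rest overlapped. KO replicate 1 was the lowest library for Zp1 (2652), Zp2 (9908) and Zp3 (12413), against at least 4743, 15428 and 22305 elsewhere. It was also the lowest for Figla and Nobox, and the highest for Oosp1. The 4 theca and steroidogenic markers in the table summed to 1892 (WT replicate 1), 17.7 (WT replicate 2) and 322 (WT replicate 3), and to between 9.45 and 54.0 in KO, and 2 of the 3 tested fell. The 12 granulosa markers summed to between 633 and 837 in WT and between 530 and 678 in KO, and none of the 10 tested passed. Within that list Amh and Foxl2, which define granulosa cells, were at 3.33 normalized counts or below in every library and at 0 in several. Cyp19a1 had 363 to 445 in WT and 301 to 336 in KO, without overlap. Over both groups Nr5a2 had 136 to 171 and Inha 28.4 to 171, and each overlapped. Other lists did not overlap between the groups. The 8 proliferation genes summed to between 4244 and 4837 in WT and between 4031 and 4124 in KO, with 1 of 8, Top2a, called and lower. The stroma markers summed to 18.5 to 93.2 in WT and 7.19 to 11.6 in KO, with 1 of 2 tested lower, and the immune markers, mostly C1qb, to 368 to 454 in WT and 468 to 610 in KO, with none of 3 tested called. The endothelial and surface epithelium lists overlapped, and no gene of either was called. In a pooled sample, fewer cells of a type and less RNA per cell cannot be told apart, and the part that RNA of other ovarian cells, or the lower proliferation genes, play in the values below was not tested.

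Many kinetochore genes are switched on in dividing cells through a short promoter element, the cell cycle genes homology region (CHR), with the letters TTTGAA, which binds the DREAM and MuvB complexes. The sites below are shown because this element is a feature the choice of genes did not use. RefSeq promoter windows on GRCm38.p6, 250 bases before to 50 after the start of transcription, were matched by symbol for 36 of the 39 genes. TTTGAA, on either strand, was present in 14 of these 36 (38.9%) and in 15.4% of the 10926 tested protein-coding genes with a window. The 6 sites shown are those of Cenpf (chr1:189688067-189688096, minus strand), Ndc80 (chr17:71526811-71526840, minus), Spc25 (chr2:69206172-69206201, minus), Ttk (chr9:83834684-83834713, plus), Kntc1 (chr5:123749706-123749735, plus) and Bub1b (chr2:118598231-118598260, plus). Capitals mark the element, and TTCAAA is the same element read on the other strand. Their first base lies 3, 30, 25, 8 and 41 bases into the transcript for Cenpf, Ndc80, Spc25, Ttk and Bub1b, counting the start as 1, and at -8 for Kntc1. Sites not shown include some farther away, at -162 for Cenpl, -148 for Zw10 and -135 for Pmf1. For Bub3 it is -43 or -167 by the start used. The remaining sites lie at -25 (Cenpw), -9 (Cenpn), 2 (Spdl1) and 17 (Cenpa).
Cenpf: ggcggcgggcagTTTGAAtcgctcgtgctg
Ndc80: gaaactttaaaaTTCAAAccgccttgggtt
Spc25: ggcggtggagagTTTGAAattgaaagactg
Ttk: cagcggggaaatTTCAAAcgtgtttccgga
Kntc1: ttctcccgccaaTTCAAAtcagtggcaggg
Bub1b: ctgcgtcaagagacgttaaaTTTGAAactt

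Other promoter letters were searched in the same windows on both strands. CCAAT, the box bound by NF-Y, was present in 66.7% of the 36 and in 43.0% of all windowed genes. TTCCCGC, a form of the E2F site, was present in 30.6% against 9.07%, and another form, TTTCGCG, in 2.78% against 1.76%. GGCGG, the letters of the cell cycle dependent element, was present in 94.4% against 79.7%. The median log2 fold change of KO against WT was -0.10 over the 14 genes with TTTGAA and -0.04 over the 22 without it. These are descriptions of letters in a window, and base composition was not matched between the genes and the rest.

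Stored oocyte mRNAs are often held with short poly(A) tails and lengthened during maturation through the cytoplasmic polyadenylation element (CPE), here TTTTAT or TTTTAAT on the transcript strand. It is shown because Smart-Seq2, the method used here, primes on poly(A) tails. In the last 100 bases of the 3′ UTR of the principal GENCODE transcript, 10 of 38 genes (26.3%) held a CPE, against 19.1% of the 12494 tested coding genes searched, and the signal AATAAA was present in 68.4% against 64.3%. The sites shown are those of Cenpe (chr3:135273513-135273542, plus strand), Ndc80 (chr17:71496164-71496193, minus), Cenph (chr13:100759717-100759746, minus), Bub1b (chr2:118641553-118641582, plus) and Mad2l1 (chr6:66540962-66540991, plus), on GRCm38, with the element in capitals. The median log2 fold change was -0.08 over the 10 genes with the element and -0.04 over the 28 without it.
Cenpe: cttgaaggaaaaTTTTAATctttccagatg
Ndc80: tataacatagtaTTTTATccccaaattatg
Cenph: catgcattttacTTTTATaacttaaggaat
Bub1b: tttcactgtgtaTTTTATaataaaatagtt
Mad2l1: tgtaataaagaactcttaTTTTAATgtttt

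Kinetochore and checkpoint transcripts were abundant in both groups, and most did not pass the test between KO and WT. Together the 39 genes held 0.723% to 0.751% of all reads in WT and 0.689% to 0.716% in KO. Cenpe and Cenpf, proteins of the corona, fell in KO, Cenpk, a subunit of the inner network, rose, and the other 36 genes did not pass the threshold (limma on log2(value + 1), Benjamini-Hochberg adjusted p under 0.05 over all tested genes). The 3 calls make 7.69% of the 39, against 3.28% of all tested genes, with 1.41% of all genes lower and 1.87% higher. Among tested genes with a mean of at least 100 normalized counts, a level that 36 of the 39 reached, 6.22% were called, 2.92% lower and 3.29% higher. All 3 calls fell among those 36 (8.33%). In limma the share of calls thus lay near the background of genes of similar abundance. The median log2 fold change over the 39 genes was -0.06, against -0.01 over all tested genes, and 23 of the 39 (59.0%) lay below 0, against 51.3% of all. Over the genes with a mean of at least 100 the median was -0.03 and 55.5% lay below 0.

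**Figure D1:**
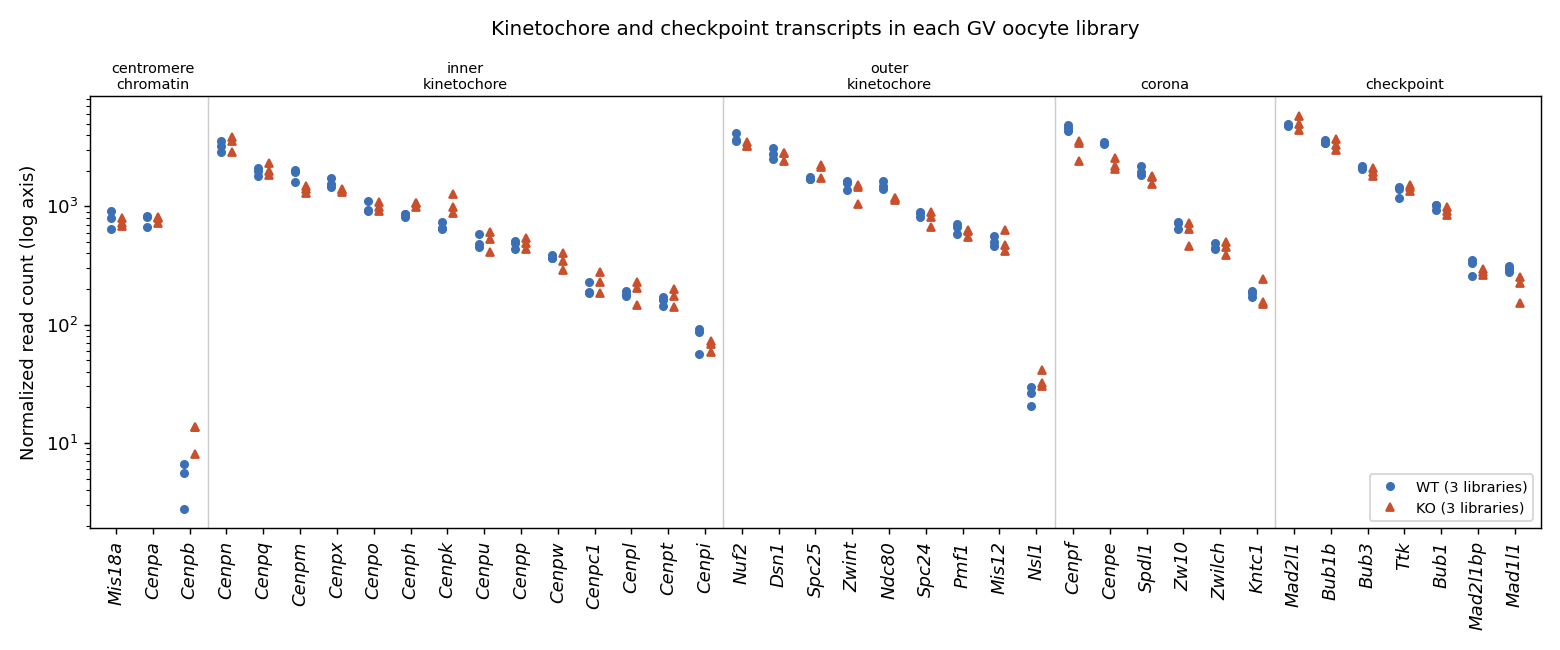
Normalized read counts on a log axis for each of the 39 genes, with circles for the 3 WT and triangles for the 3 KO libraries, ordered by role and by WT mean. Cenpb and Nsl1 stood below 50 in every library, and Mad2l1, Cenpf, Nuf2, Bub1b and Cenpe had the highest WT means.

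In 12 of the 39 genes (30.8%) the 3 KO values did not overlap the 3 WT values, 8 of them lower and 4 higher. Among all tested genes this was so for 23.2% (11.7% lower and 11.5% higher), and for 31.5% of those with a mean of at least 100. Of the 36 kinetochore genes at that level, 10 (27.8%) did not overlap, 8 lower and 2 higher. Of all 7078 genes at that level, 1255 were lower and 977 higher. The median size of the log2 fold change, without its sign, was 0.13 over the 39 genes and 0.17 over all genes with a mean of at least 100. For 27 of the 39 the 95% interval of the log2 fold change lay within 0.5 of 0, and for 37 within 1. The exceptions at the wider bound were Cenpb and Nsl1, the genes of lowest count.

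**Figure D2:**
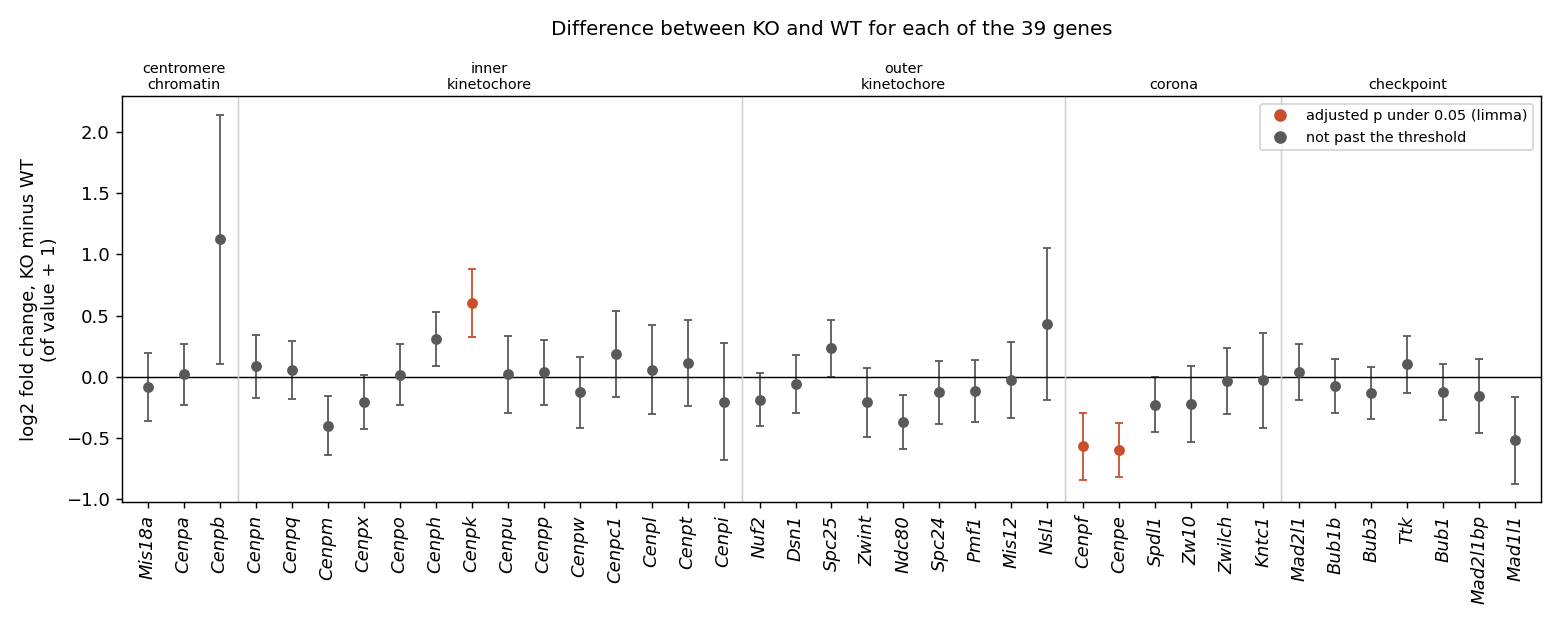
Log2 fold change of KO minus WT for each gene with its 95% interval from limma, in orange where the adjusted p was under 0.05. Cenpe (-0.60) and Cenpf (-0.57) lie below 0 and Cenpk (0.60) above it, and Cenpb and Nsl1 have the widest intervals.

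The centromere chromatin genes did not pass the test. Cenpa, the histone H3 variant that marks centromeres (chromosome 5, 30666777 to 30674830), had 670, 829 and 816 normalized counts in WT and 818, 728 and 792 in KO. The groups overlapped, with a log2 fold change of 0.02 (SE 0.12, 95% interval -0.23 to 0.27). Mis18a, part of the complex that licenses CENP-A loading, had 641, 792 and 920 in WT and 687, 792 and 717 in KO, again overlapping (-0.09, SE 0.13). Cenpb, which binds the CENP-B box of minor satellite DNA (chromosome 2, 131175182 to 131180067), was the lowest of the 39 by count and per length. It rested on 6, 6 and 3 reads in WT and 13, 13 and 9 in KO, or 6.65, 5.58 and 2.77 against 13.7, 13.7 and 8.09 normalized counts. All KO values lay above all WT values, with a log2 fold change of 1.12 (SE 0.48, limma adjusted p = 0.227) and an interval from 0.11 to 2.14. Cenpb overlaps Spef1 on its own strand, and neither edgeR nor DESeq2 gave it an adjusted p.

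Of the 14 inner network genes, 1 rose and none fell in limma. Of these genes 10 (71.4%) lay above 0, against 48.7% of all tested genes (median log2 fold change 0.05). After correction for GC content and transcript length, Cenpl, Cenpo, Cenpq and Cenpu of these 10 lay below 0. The CENP-H/I/K/M complex, which bridges CENP-A nucleosomes and the outer layer, held subunits that differed in direction. Cenpk (chromosome 13, 104228611 to 104252392) had 645, 660 and 734 in WT and 1269, 988 and 878 in KO. Every KO library lay above every WT library, and KO replicate 1 was the highest. On the log2 scale it rose by 0.60 (SE 0.13, limma adjusted p = 0.0212), or from 680 ± 47.5 to 1045 ± 202 (SD, n = 3 each). After correction for GC content and transcript length, Cenpk rose by 0.43 (limma adjusted p = 0.0476). Without WT replicate 1, WT replicate 2, WT replicate 3 or KO replicate 2 its limma adjusted p was 0.0844, 0.0905, 0.0722 and 0.0505. When the genes tested were held to those of all 6 libraries, Cenpk passed in 1 of 6 such fits. There it was also lost without KO replicate 3 (limma adjusted p = 0.0511). Cenpk overlaps Ppwd1 on the other strand, and the libraries keep no strand. Ppwd1 had 98.7, 137 and 163 in WT and 94.5, 96.1 and 82.7 in KO.

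Cenpm, another subunit of that complex, which resembles a small GTPase (chromosome 15, 82233779 to 82244748), had 1933, 2024 and 1591 in WT and 1303, 1398 and 1485 in KO. The groups did not overlap, with every KO value lower. The change, -0.40 on the log2 scale (SE 0.11), missed the limma threshold (adjusted p = 0.0622) and passed both count tests on the recovered reads (adjusted p = 0.0485 in edgeR and 0.0183 in DESeq2). Cenph had 811, 857 and 855 in WT and 1070, 989 and 1066 in KO, without overlap, and 0.31 as log2 fold change (SE 0.10) missed the threshold (limma adjusted p = 0.119). Cenpi, the fourth subunit, was the lowest of the inner network, with 56.7 to 92.0 in WT and 59.2 to 72.8 in KO. Over the 39 genes, edgeR called 5, against 6.03% of all genes it tested (2.58% lower and 3.45% higher). DESeq2 also called 5, against 6.84% of all (3.13% lower and 3.72% higher). In both, Cenpe, Cenpf, Cenpm and Ndc80 were lower and Cenpk was higher, and Cenpb had no adjusted p. The share called was thus larger than that of all genes in both count tests. It was not set against genes of similar abundance there.

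The other inner network genes did not pass and their fold changes lay between -0.21 and 0.19 on the log2 scale. Cenpn, whose product reads CENP-A nucleosomes together with that of Cenpl, had 3202, 2891 and 3594 in WT and 2873, 3838 and 3593 in KO. Cenpl itself had 173 to 193 in WT and 146 to 227 in KO. Among the CENP-O/P/Q/U genes, Cenpq (-0.18 to 0.29 as its 95% interval), Cenpo (-0.23 to 0.27), Cenpp (-0.23 to 0.30) and Cenpu (-0.30 to 0.33) all overlapped between groups. These intervals leave out changes of the size seen for Cenpk. Of Cenpo, Cenpp and Cenpu, 25.1%, 20.9% and 33.0% of 75-base windows match the overlapping genes Ptrhd1, Ippk or Primpol, among others, so their counts are uncertain. Cenpx, of the CENP-T/W/S/X module that folds like histones, had 1467 to 1735 in WT and 1308 to 1409 in KO, without overlap (-0.21, SE 0.10, limma adjusted p = 0.324). Cenpt (0.11), Cenpw (-0.13) and Cenpc1 (0.19), which encodes the CENP-C scaffold, overlapped between groups.

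In the outer kinetochore, none of the 9 genes passed the limma test, and 7 lay below 0 (median -0.12). Ndc80, which gives the microtubule-binding subunit of the NDC80 complex (chromosome 17, 71496100 to 71526857), had 1493, 1400 and 1629 in WT and 1131, 1184 and 1182 in KO. The 3 KO libraries were close to each other and all below WT. On the log2 scale the difference was -0.37 with an SE of 0.10 (adjusted p = 0.0616 in limma, 0.0438 in edgeR and 0.0171 in DESeq2). It also passed in limma with genes under a mean of 10 left out (adjusted p = 0.0487) and after correction of each library for GC content and transcript length (-0.42, adjusted p = 0.027). It missed the threshold with no filter (0.0675), with TMM scaling (0.0664), with the replicate block (0.122) and in all 6 fits with a library left out (0.054 to 0.235). Its partner Nuf2 had 3637, 3544 and 4148 in WT and 3474, 3214 and 3242 in KO, without overlap (-0.19, SE 0.10, adjusted p = 0.351). The subunits that anchor the complex to the inner layer gave other values. Spc25 had 1687, 1704 and 1778 in WT and 2222, 2143 and 1746 in KO, and KO replicate 3 overlapped WT (0.23, SE 0.11, limma adjusted p = 0.276). Spc24 ranged from 808 to 895 in WT and from 672 to 888 in KO (-0.13).

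The MIS12 complex joins the inner network to NDC80. Dsn1 had 2488 to 3139 in WT and 2413 to 2829 in KO, Pmf1 582 to 708 and 551 to 632, and Mis12 461 to 563 and 417 to 628, with fold changes between -0.12 and -0.03 on the log2 scale. The fourth subunit, Nsl1, stood far lower, at 26.6, 29.8 and 20.3 in WT and 30.5, 41.2 and 32.4 in KO (22 to 39 reads). Per kilobase of the principal transcript, Dsn1 had 1345 normalized counts in WT, Pmf1 650, Mis12 360 and Nsl1 5.24. The order of these subunits is the same when the longest coding transcript is used (1061, 650, 170 and 5.24). Zwint, an outer kinetochore protein that links to the corona, had 1382 to 1625 in WT and 1049 to 1503 in KO (-0.21, SE 0.13), with KO replicate 1 lowest. Without KO replicate 1 the Zwint fold change was -0.0445.

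**Figure D3:**
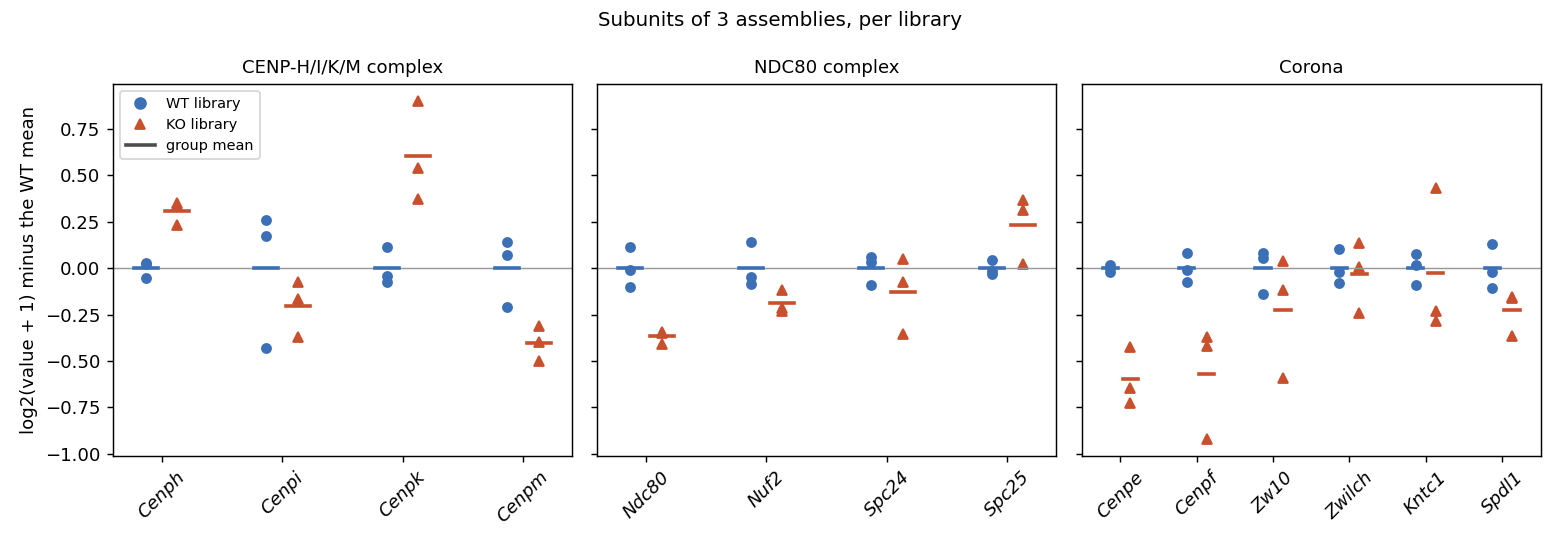
Log2(value + 1) of each library minus the WT mean of the gene, for the CENP-H/I/K/M complex, the NDC80 complex and the corona, with circles for WT, triangles for KO and bars for group means. Cenpk and Cenph lie above WT and Cenpm below it, Ndc80 lies below WT while Spc25 does not, and all KO values of Cenpe and Cenpf lie below WT.

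All 6 corona genes had a log2 fold change below 0 in limma, with a median of -0.23, and 2 of them, Cenpe and Cenpf, passed the test. Of all tested genes, 51.3% lay below 0 and 3.28% were called. Zwilch and Kntc1 lay near 0 (-0.03 each) and took either sign with 1 library left out. Kntc1 lay above 0 in edgeR and DESeq2. Their summed normalized counts were 11347, 10893 and 11801 in WT and 7133, 9016 and 8887 in KO, without overlap. This rests on Cenpe and Cenpf, since the other 4 genes summed to 3319, 3111 and 3563 in WT and 2637, 3033 and 3154 in KO, which overlapped. Cenpe, a kinesin that carries chromosomes to the spindle equator (chromosome 3, 135212537 to 135273611, plus strand), had 3463, 3416 and 3373 in WT and 2066, 2548 and 2181 in KO. The 3 WT values were close to each other, 3418 ± 45.1 (SD, n = 3), and every KO value lay below them, 2265 ± 252 (n = 3). On the log2 scale the difference was -0.60 with an SE of 0.10 (limma adjusted p = 0.00674), with an interval from -0.82 to -0.38. With 1 library left out at a time, it passed in all 6 fits when the filter was applied again (adjusted p = 0.0036 to 0.0445). When the genes tested were held to those of all 6 libraries, it passed in 4 of 6, with the highest adjusted p, 0.0564, without KO replicate 3. Of its 75-base windows, 3.50% match annotated copies such as Gm17969, which had 6.46 to 15.8 in WT and at most 23.4 in KO, with every KO library above WT.

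Cenpf, a large coiled-coil protein of the nuclear matrix and kinetochore (chromosome 1, 189640606 to 189688086, minus strand), had 4564, 4366 and 4864 in WT and 2431, 3435 and 3553 in KO. All KO libraries were below all WT libraries and KO replicate 1 was the lowest. The log2 fold change came to -0.57 (SE 0.13; adjusted p = 0.0259 in limma). The fold change was -0.39 without KO replicate 1 (adjusted p = 0.0174), and the call was lost without WT replicate 1 (0.0788), WT replicate 2 (0.0747) or WT replicate 3 (0.125). When the genes tested were held to those of all 6 libraries, Cenpf passed in 2 of 6 fits. There it was also lost without KO replicate 3 (limma adjusted p = 0.0623).

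Spdl1, whose product Spindly recruits dynein to the corona, had 1956, 1842 and 2176 in WT and 1542, 1776 and 1786 in KO, without overlap (-0.23, SE 0.11, adjusted p = 0.28). The 3 genes of the RZZ complex, which holds Spindly and the MAD proteins at kinetochores, overlapped between groups. Zw10 had 637 to 741 in WT and 464 to 719 in KO (-0.22), Zwilch 431 to 488 and 386 to 500 (-0.03), and Kntc1 170 to 191 and 148 to 245 (-0.03). KO replicate 1 was the lowest library for Zw10 and Zwilch and the highest for Kntc1. Without KO replicate 1 the Zw10 fold change was -0.0386. Per kilobase of the principal transcript the RZZ genes also differed in level, with 245 normalized counts for Zw10, 154 for Zwilch and 26.0 for Kntc1 in WT.

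None of the 7 checkpoint genes passed the limma test, and 5 lay below 0 (median -0.12). For 6 of them the 95% interval lay within 0.5 of 0 on the log2 scale. Mad2l1, whose protein MAD2 binds and inhibits CDC20 (chromosome 6, 66535390 to 66547220), had 4793, 4901 and 4978 in WT and 5781, 4913 and 4442 in KO, the highest counts of the 39 in WT. The KO values spanned the WT range (0.04, SE 0.11, interval -0.19 to 0.27). Bub1b, which encodes BUBR1, the other inhibitory subunit, had 3403, 3418 and 3648 in WT and 3707, 2978 and 3284 in KO (-0.08, interval -0.30 to 0.15). Bub3, its WD40 partner, had 2074, 2177 and 2151 in WT and 1817, 2089 and 1947 in KO (-0.13, SE 0.10, limma adjusted p = 0.543), and KO replicate 2 overlapped WT.

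Of the kinases, Bub1 had 930 to 1032 in WT and 847 to 990 in KO (-0.12), and Ttk, which encodes MPS1 and starts the checkpoint cascade, 1182 to 1444 and 1348 to 1501 (0.10). Mad1l1, whose protein MAD1 carries MAD2 to kinetochores (chromosome 5, 140008689 to 140321552), had 311, 278 and 295 in WT and 153, 224 and 251 in KO. It was the only checkpoint gene whose groups did not overlap. A log2 fold change of -0.52 (SE 0.17) missed the threshold (adjusted p = 0.104 in limma, 0.103 in edgeR and 0.0979 in DESeq2), and KO replicate 1 was the lowest. Without KO replicate 1 the Mad1l1 fold change was -0.31. Mad2l1bp, which encodes p31comet, a protein that silences the checkpoint, had 258 to 348 in WT and 263 to 295 in KO (-0.16).

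Levels between genes were compared per kilobase of transcript. With the principal transcript, Mad2l1 (2835 normalized counts per kilobase), Cenpx (2604), Cenpn (1826) and Nuf2 (1826) were the highest in WT. With the longest coding transcript, Cenpn (1826), Cenpx (1808), Nuf2 (1570) and Cenpm (1539) led, and Mad2l1 was at 647, since its longest annotated transcript has 7557 bases and the principal 1725. Cenpn and Nuf2 did not differ beyond their spread with the principal transcript, and the lowest genes with either length were Cenpb (1.02) and Nsl1 (5.24).

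A further 28 genes of the kinetochore and its regulators, all found in the table and all tested, were read from the same fit. None passed the limma threshold, and 6 (21.4%) had an unadjusted p under 0.05. That share was 18.0% of all tested genes and 26.9% of those with a mean of at least 100. edgeR called 0 and DESeq2 called 1, Plk1. After correction for GC content and transcript length, Knl1 (-0.62, limma adjusted p = 0.0208) and Kif18a (-0.44, limma adjusted p = 0.0236) passed, both lower. Of all genes, 3.425% were called in that setting. Plk1, the polo-like kinase that acts at kinetochores and spindle poles (chromosome 7, 122159439 to 122169873), had 1521, 1288 and 1507 in WT and 893, 1105 and 1209 in KO. The groups did not overlap (-0.44, SE 0.12, adjusted p = 0.0636 in limma, 0.0551 in edgeR and 0.025 in DESeq2). Trip13, an ATPase that remodels MAD2, had 37.7, 27.9 and 34.2 in WT and 62.0, 45.4 and 71.0 in KO, all higher than WT (0.81, SE 0.26, limma adjusted p = 0.101). The median log2 fold change of these 28 genes was -0.08, and groups did not overlap in 9 of them (32.1%), 8 lower and 1 higher. With both directions together this is near the 31.5% of genes with a mean of at least 100. Of those 7078 genes, 1255 were lower and 977 higher without overlap, a more even split than 8 to 1.

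**Figure D4:**
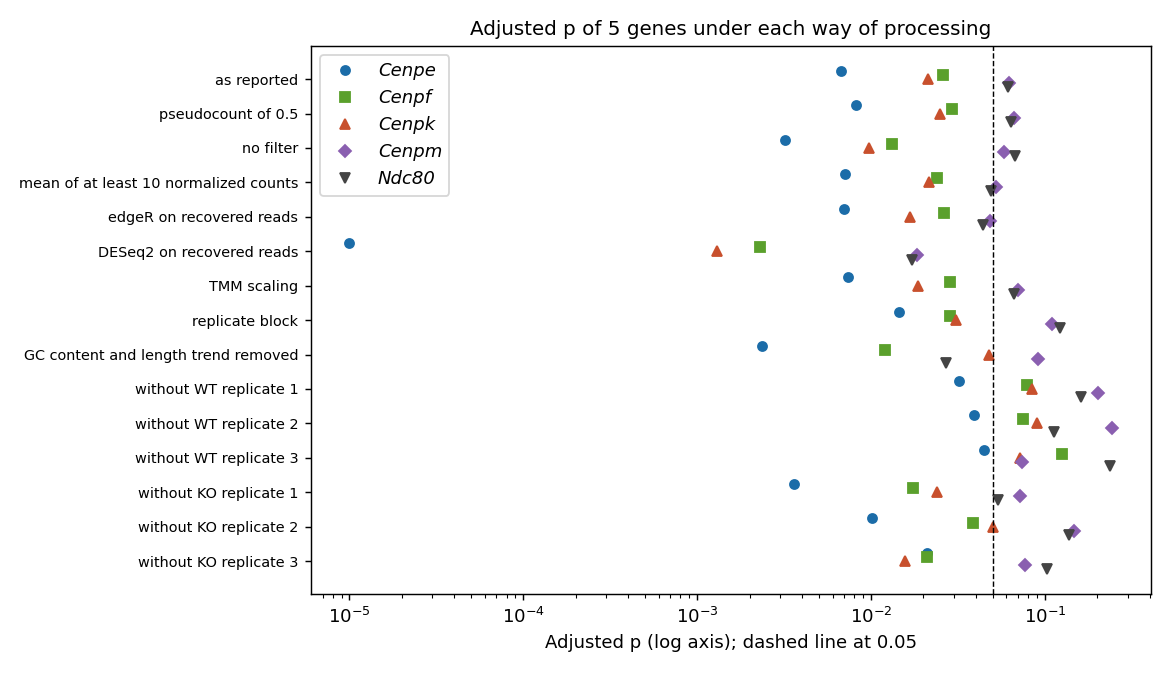
Adjusted p on a log axis of the 5 genes that passed in any of limma, edgeR or DESeq2, as reported, under 8 other settings and with each library left out and the filter applied again, with a dashed line at 0.05. Cenpe lies left of the line in these rows (fits that kept the genes of all 6 libraries are not drawn, and reached 0.0564), while Cenpf and Cenpk cross it when single libraries are left out.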

How the data were processed

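Per the labels' protocols, cDNA was made with Smart-Seq2 and libraries with Nextera XT, which keeps no strand or molecular identifiers. Per the submitters' processing notes, cutadapt, FastQC, STAR, DESeq and DESeq2 were used with GRCm38 and mm10. Their versions, and the annotation the reads were counted on, are not stated. The deposited values are a signal, normalized read counts, made by the authors by dividing reads by a size factor per library. Divided by what 1 read is worth in its library, 100% of values above 0 came out whole within 0.1 reads.

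Log2(value + 1) of the 18762 genes that reached 1 in 3 or more libraries was compared, KO against WT, with limma-trend (limma 3.58.1, R 4.3.3) with no covariate and a Benjamini-Hochberg threshold of 0.05. The fold change of low genes is understated on this scale. edgeR 4.0.16 and DESeq2 1.42.0 ran on the recovered reads. Intervals cover the spread between libraries, and a count of 0 allows 3 reads.

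Lengths, positions, overlaps and 3′ UTRs came from GENCODE M21 (GRCm38), to which 95.5% of genes matched by symbol. Shared windows were found with minimap2 2.31-r1302. The principal transcript is the one of best APPRIS rank, with CCDS-tagged transcripts taken first and then the shortest. Genes given in full passed in limma, edgeR or DESeq2, had the 2 smallest p of their role, or were highest or lowest per length, and of the 28 further genes the 2 of smallest p. Others were added after their values were seen. The members and lists were chosen with earlier results of these data known.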

Additional observations from a re-analysis of the deposited data

How the results depend on the processing

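Of the 39 genes, Cenpe and Cenpf lower and Cenpk higher were called as reported with a pseudocount of 0.5, no filter, TMM scaling or the replicate block. With genes under a mean of 10 left out, or after correction for GC content and length, Ndc80 joined them. Under the GC and length correction Cenpk was smaller, 0.43 against 0.60, and just under the threshold (limma adjusted p = 0.0476). edgeR and DESeq2 each called 4 lower. With 1 library left out, 0 to 2 were called lower and 0 to 1 higher, and over all genes 30 to 430 lower and 39 to 459 higher, of 264 and 351. The 430 lower and 459 higher calls were those without KO replicate 1. The median log2 fold change of the members was 0.0164 without WT replicate 3, and -0.0921 to 0.0164 over these fits. Keeping the genes of the 6-library filter in them was chosen after seeing the data. After the GC and length correction, rises made 47.0% of all calls, against 57.1%.

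Same-numbered libraries did not deviate together (r of -0.08, -0.02 and -0.04), and with the replicate block all genes had 175 lower and 246 higher calls, the 3 calls of the 39 unchanged.

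Signs near 0 turned for Cenpl (-0.11), Cenpo (-0.0535), Cenpq (-0.00569), Cenpu (-0.0568) and Mad2l1 (-0.14) after that correction, and for Kntc1 in edgeR (0.00452) and DESeq2 (0.00771). With 1 library left out, none of the following was called and each took either sign: Cenpa (-0.0789 to 0.0743), Mis18a (-0.22 to 0.0361), Cenpl (-0.0733 to 0.25), Cenpn (-0.00135 to 0.21), Cenpo (-0.0545 to 0.11), Cenpp (-0.0425 to 0.12), Cenpq (-0.0336 to 0.13), Cenpt (-0.00859 to 0.24), Cenpu (-0.11 to 0.17), Mis12 (-0.20 to 0.0982), Dsn1 (-0.14 to 0.0304), Zwilch (-0.12 to 0.0688), Kntc1 (-0.26 to 0.10), Bub1b (-0.16 to 0.000379) and Mad2l1 (-0.0659 to 0.12). The causes were not tested.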

Other observations

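Ratios of counts within a library do not depend on how libraries are scaled. The pairs below were chosen after their values were seen, and no test was made. The ratio of Cenpk to Cenpm, subunits of the same inner complex, was 0.334, 0.326 and 0.461 in WT and 0.974, 0.707 and 0.591 in KO. The ratio of Cenph to Cenpm was 0.419, 0.424 and 0.537 in WT and 0.822, 0.708 and 0.718 in KO. Both ratios were higher in every KO library than in any WT library. Within the NDC80 complex, the ratio of Ndc80 to Spc25 was 0.885, 0.822 and 0.916 in WT and 0.509, 0.553 and 0.677 in KO, all lower. The ratio of Spc25 to Spc24 overlapped between groups, with 1.89 to 2.11 in WT and 1.97 to 3.31 in KO.

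Against Bub1b, a checkpoint gene of similar count, Cenpe stood at 0.981 ± 0.0493 in WT and 0.692 ± 0.151 in KO and Cenpf at 1.32 ± 0.0349 and 0.964 ± 0.269 (SD, n = 3 each). The ratio of Cenpe to Cenpf was 0.745 ± 0.0461 in WT and 0.735 ± 0.118 in KO, overlapping. The ratio of Mad2l1 to Mad1l1 was 15.4, 17.6 and 16.9 in WT and 37.7, 21.9 and 17.7 in KO, with KO replicate 3 close to the highest WT library.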
